A study of Mus musculus with 12 samples.

Results

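The 7 genes Myl7, Sln, Myl4, Bmp10, Dkk3, Stard10 and Kcnj3 are markers of atrial heart muscle cells, and they were followed here, out of 12393 genes, on 12 Affymetrix arrays of mouse heart muscle. They were chosen by name as known atrial markers, with earlier results of these data known. Their ranks among all probe sets are therefore given as descriptions. Every probe set annotated to 1 of them alone was taken. That gave 10 of the 22690 probe sets on the array, of which 9 passed the filter on dim signals, and every one of the 7 genes kept at least 1. The 4 groups were mdx hearts and control hearts at 8 weeks and mdx hearts and control hearts at 10.5 months, with 3 arrays each. Mice of the mdx line carry a point mutation in the dystrophin gene Dmd, in all cells, and model Duchenne muscular dystrophy. The series title calls the controls wild type. The labels give no strain, no number of hearts per array and no account of how the hearts were dissected. Nothing in them says that replicates came from separate animals, so p-values measure only the spread between these samples.

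The heart has atrial and ventricular muscle cells, which build the same contractile machine from partly different isoforms. Atrial cells use the myosin light chains encoded by Myl7 and Myl4 where adult ventricular cells use those of Myl2 and Myl3, and they restrain the calcium pump SERCA mainly with sarcolipin where ventricular cells use phospholamban. Adult ventricle makes little of the atrial isoforms, so in RNA from a whole heart or a piece of it their level follows how much atrial muscle was taken as well as how active the genes were. In bulk RNA, fewer cells of a type and less RNA per cell cannot be told apart.

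Members that moved together from array to array are shown with the 250 bases before their transcription start, from RefSeq (GRCm38.p6), which held such a window for 5 of the 7 genes. The windows of Myl7 (chr11:5898783-5899032, minus strand), Myl4 (chr11:104550413-104550662, plus strand) and Bmp10 (chr6:87428744-87428993, plus strand) are printed because these were the 3 genes with a window that varied most across the arrays, with matches to the CArG box of serum response factor and to the GATA factor motif GATAA in capitals.
Myl7: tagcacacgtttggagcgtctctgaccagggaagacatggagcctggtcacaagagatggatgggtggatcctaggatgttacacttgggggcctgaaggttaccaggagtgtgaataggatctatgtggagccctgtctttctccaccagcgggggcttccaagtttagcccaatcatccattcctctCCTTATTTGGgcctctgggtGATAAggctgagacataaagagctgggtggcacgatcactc
Myl4: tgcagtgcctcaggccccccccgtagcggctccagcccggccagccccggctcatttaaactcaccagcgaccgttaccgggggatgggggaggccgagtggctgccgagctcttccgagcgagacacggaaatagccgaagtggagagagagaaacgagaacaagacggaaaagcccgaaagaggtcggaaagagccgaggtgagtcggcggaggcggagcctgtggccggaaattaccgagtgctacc
Bmp10: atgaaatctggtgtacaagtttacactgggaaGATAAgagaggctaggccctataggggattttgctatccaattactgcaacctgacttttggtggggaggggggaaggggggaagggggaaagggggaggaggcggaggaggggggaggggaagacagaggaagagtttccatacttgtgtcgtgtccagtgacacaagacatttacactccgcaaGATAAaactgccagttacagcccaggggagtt
The Myl7 window held 1 CArG box, 61 to 52 bases before the start, and 1 GATAA, 41 to 37 bases before it. The Bmp10 window held 2 GATAA matches and no CArG box, and the Myl4 window held neither motif. Both strands were searched and no matches overlapped. Of 32851 windows of this length, 1.47% held a CArG box, 22.6% a GATAA and 11.8% the T-box motif AGGTGT. Of the other windows, that of Stard10 held 1 GATAA and that of Kcnj3 1 AGGTGT.

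The arrays differed in signal range. On 4 arrays (mdx replicates 1 and 2 and control replicate 2 at 8 weeks, and mdx replicate 3 at 10.5 months) the 99th percentile of deposited signal lay between 40770 and 53154, against at most 32810 on the other 8. Dmd gave a scaled signal of 159 to 286 on the 6 mdx arrays and 607 to 839 on the 6 control arrays, so every mdx array lay below every control array. A keyword in the labels names extraocular muscle. Of 11 measured skeletal muscle genes 9 were too dim to be tested, among them the fast myosins Myh1, Myh2 and Myh4, while Casq1 (269 to 591) and Atp2a1 (176 to 334) were measured on every array. The summed signal of the 11 genes was 918 to 1221 on mdx arrays and 952 to 1245 on control arrays, while 6 genes of the heart muscle cell summed to 95196 or more. Myh13, which marks extraocular muscle, was not measured.

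Myl7, the regulatory myosin light chain of the atrium and the gene used as the yardstick below, was highest by far on 2 control arrays at 10.5 months. All signals are scaled to a trimmed mean of 500 per array. Myl7 gave 805, 895 and 567 in mdx hearts and 476, 239 and 462 in control hearts at 8 weeks. In the older hearts its signal was 270, 151 and 284 in mdx and 3554, 2216 and 131 in control samples. The highest and the lowest of the 12 values thus came from the same group, 27.2-fold apart in control replicates 1 and 3 at 10.5 months.

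Sln encodes sarcolipin, a small membrane protein that inhibits the calcium pump of the sarcoplasmic reticulum. Its signal was 434, 393 and 281 in mdx hearts and 134, 126 and 155 in control hearts at 8 weeks. Among older hearts, Sln was at 25.5, 11.8 and 91.6 in mdx hearts and 2242, 1220 and 9.13 in control hearts. The 2 arrays with the lowest Sln (control replicate 3 and mdx replicate 2 at 10.5 months) were also the 2 with the lowest Myl7, and the 2 with the highest Sln were those with the highest Myl7. The values of 25.5, 11.8 and 9.13 lie below the offset of 32 that was added before logarithms were taken, so ratios that rest on them are poorly measured. The other probe set of Sln was dim everywhere (8.1 to 51.3) and did not pass the filter.

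Myl4 encodes the essential myosin light chain of the atrium, which is also made in embryonic muscle. Its brighter probe set gave 840, 1033 and 528 in mdx hearts and 482, 417 and 691 in control hearts at 8 weeks. The older hearts had 424, 233 and 632 in mdx hearts and 3694, 2489 and 231 in control hearts. The split of the older control arrays was therefore the same as for Myl7 and Sln, 16-fold between replicates 1 and 3. The other Myl4 probe set did not share it, with 51.6, 72.6 and 150 in the older controls, and the probe sets of this gene disagree.

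Bmp10, a secreted ligand of the TGF-beta family made in the adult heart mainly by the atria, gave 228, 143 and 133 in mdx hearts and 673, 373 and 61.7 in control hearts at 10.5 months. At 8 weeks it gave 118, 342 and 386 in mdx hearts and 190, 216 and 109 in control hearts. Dkk3, a secreted glycoprotein of the Dickkopf family, gave 124, 100 and 83.7 in mdx hearts and 404, 302 and 70.2 in control hearts at 10.5 months. At 8 weeks its values were 68.3, 175 and 162 in mdx hearts and 89.7, 100.2 and 109 in control hearts. Its other probe set had the same 2 arrays above the third (350, 185 and 36.4 in older controls). Both genes thus repeated the split among the older control arrays, by 10.9-fold and 5.76-fold between replicates 1 and 3.

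Stard10, a lipid transfer protein gene, and Kcnj3, which encodes a subunit of the acetylcholine-activated potassium channel of atrial cells, did not vary on that scale. Over all 12 arrays Stard10 ran from 744 to 1464 and Kcnj3 from 429 to 742. In control hearts at 10.5 months Stard10 gave 1464, 1105 and 1029, and Kcnj3 gave 742, 665 and 619. Replicate 1 exceeded replicate 3 by 1.42-fold for Stard10 and by 1.20-fold for Kcnj3. The split of the older control arrays was thus shared by 5 of the 7 genes, and no measure of atrial tissue apart from such genes was at hand.

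**Figure D1:**
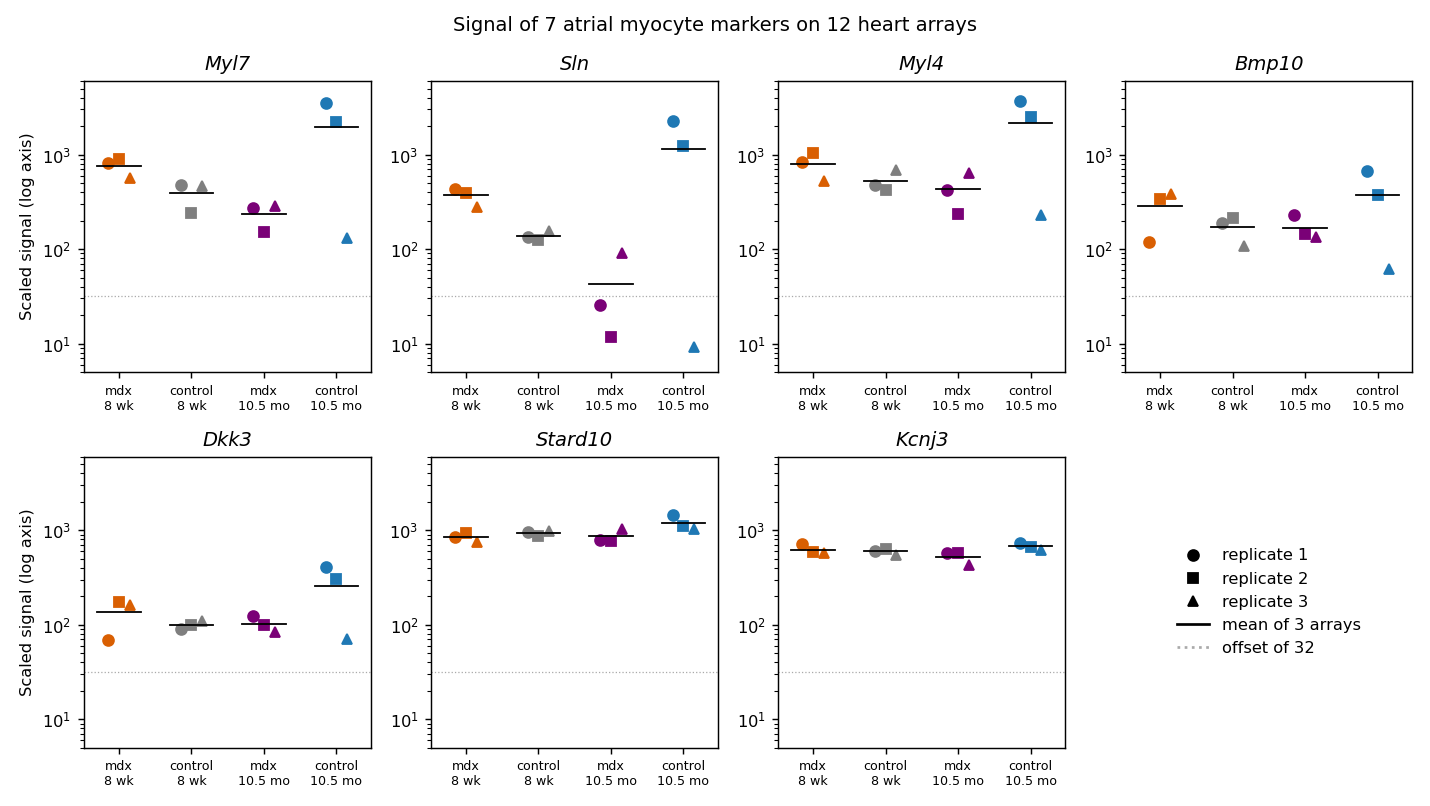
Scaled signal (log axis) of the brightest probe set of each of the 7 atrial markers on 12 arrays, by group; symbols are replicates, the line is the mean of 3 arrays and the dotted line the offset of 32. In control hearts at 10.5 months replicates 1 and 2 lie far above replicate 3 for Myl7 (3554 and 2216 against 131), Sln, Myl4, Bmp10 and Dkk3, while Stard10 and Kcnj3 stay within 744 to 1464 and 429 to 742.

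For 5 of the 7 genes the spread within groups was well above that of most probe sets. The SD of log2(signal + 32) within groups was 1.62 for Sln, 1.26 for Myl7 and 1.12 for Myl4, against a median of 0.238 over the 14932 tested probe sets. No tested probe set had a larger SD than Sln, 1 had a larger SD than Myl7, and 3 had a larger SD than Myl4. Bmp10 (0.90) was exceeded by 25 probe sets and Dkk3 (0.64) by 261. Stard10 (0.20) and Kcnj3 (0.16) lay below the median. Most of this spread came from 1 group. The SD of Myl7 was 2.41 among control hearts at 10.5 months, and 0.33 and 0.44 among mdx hearts and 0.51 among control hearts elsewhere.

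Few other probe sets split the older control arrays in this way. On the log2(signal + 32) scale, 50 of 14932 tested probe sets (0.335%) were at least 2-fold higher in both replicates 1 and 2 than in replicate 3, and 19 (0.127%) were at least 2-fold lower in both. At least 4-fold higher were 5 probe sets, those of Sln, Myl7, Myl4, Bmp10 and Serpinf1, and 0 were at least 4-fold lower. Without the offset the signals of both Dkk3 probe sets differ by more than 4-fold too (5.76 and 4.31 for the one described first), since the offset shrinks ratios of dim signals. Serpinf1, a secreted protein of the serpin family, was singled out after its values were seen. The probe set in question gave 713, 754 and 656 in mdx hearts and 456, 359 and 62.5 in control hearts at 10.5 months, so it did not follow Myl7 in mdx hearts. Its brightest probe set showed no such split (766, 715 and 736 in older controls).

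Across all 12 arrays Sln and Myl4 followed Myl7 most closely of all probe sets. Pearson's r of log2 signal with Myl7 was 0.97 for Sln (Spearman's rho 0.97) and 0.97 for Myl4 (rho 0.94), with permutation p = 1e-05, the smallest that 100000 resamples can give, and p = 3e-05 and 4e-05 for rho. Adjusted over 14931 probe sets these p-values for r came to 0.0747 for both, and for rho to 0.299 for both. With 100000 resamples 0.0747 is the lowest adjusted p that a pair of probe sets at the smallest p can reach, so that value is set by the number of resamples. With the older control replicates 1 and 2 left out, the arrays farthest from the median of Myl7, r was still 0.94 for Sln and 0.91 for Myl4 over 10 arrays. Over the 8 arrays of narrow signal range r was 0.99 for both, and the 4 wide arrays are too few for a value. Arrays of 1 group share age and genotype, so the 12 points are not fully independent.

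The other members followed less closely. By r with Myl7 among 14931 probe sets, Sln ranked 1, Myl4 2, the 2 probe sets of Dkk3 6 and 7, Bmp10 13, Stard10 101 and Kcnj3 227. The other Myl4 probe set ranked 8188 (r = -0.04). For the brighter Dkk3 probe set r was 0.83 (rho 0.60, permutation p = 0.00129 and 0.0439), and 0.41 without the 2 arrays. For the other it was 0.86 (rho 0.87, permutation p = 0.00026 and 0.00042, adjusted p = 0.647 and 1.0), and 0.81 without them. For Bmp10 it was 0.76 (rho 0.63, permutation p = 0.00354 and 0.0333) and 0.50 without them. For Stard10 it was 0.62 (rho 0.34, permutation p = 0.0313 and 0.275) and -0.04 without them, so that relation rests on those 2 arrays. For Kcnj3 it was 0.54 (rho 0.45, permutation p = 0.0686 and 0.142) and 0.20 without them. None of these passed after adjustment over all probe sets (adjusted p = 1.0 for the brightest probe set of each of the 4 genes, r and rho).

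Among genes outside the 7, the one most like Myl7 was Hamp, which encodes the iron hormone hepcidin and is also made in the heart (r = 0.88, rho = 0.85, permutation p = 0.00012 and 0.00092, adjusted p = 0.448 and 1.0; r = 0.76 without the 2 arrays). Its signal was 226, 142 and 155 in mdx hearts and 461, 407 and 164 in control hearts at 10.5 months. The next were Rdx, an ezrin-family linker of membrane and actin (r = 0.87), Herpud2 (0.83), the histone demethylase gene Kdm2b (0.81) and Anp32b (0.80). The remaining 10 of the 15 most alike (Dpyd, Tnk2, Slc7a7, Kat6b, Clstn1, Tbl1x, Fbxl20, Celf1, Hp1bp3 and Kdm3b) had r between 0.71 and 0.78. The 5 least alike were Aimp1 (-0.79), Tmem209 (-0.77), Mycbp (-0.75), Pus3 (-0.75) and Fam210b (-0.73). These lists are not stable, since 1 of the 15 (Tnk2) was still among the top 15 with the 2 arrays left out, and 8 by Spearman's rho. No adjusted p was below 0.05, which fewer than 3 probe sets at the smallest p cannot reach with this number of resamples, and 296 had an unadjusted permutation p below 0.05 for r.

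In mdx hearts at 8 weeks Myl7, Sln and Myl4 were higher on average than in control hearts, but no member passed the test. The differences on the log2 scale were 0.93 ± 0.81 for Myl7 (SE; adjusted p = 0.593 by limma), 1.22 ± 1.04 for Sln (adjusted p = 0.579) and 0.55 ± 0.72 for Myl4 (adjusted p = 0.740). Bmp10 stood at 0.54 ± 0.58, Dkk3 at 0.28 ± 0.42, Kcnj3 at 0.05 ± 0.16 and Stard10 at -0.15 ± 0.17 (adjusted p = 0.677 to 0.895). Over all tested probe sets 2.3% were called at this age, and 0 of the 7 genes were (0 also at an unadjusted p below 0.05, against 2661 of 14932 probe sets). The median over the 7 genes was 0.54 with 6 positive, against -0.01 over the 8852 genes tested, and 48.3% of tested probe sets were positive. For Myl7 and Sln every mdx array lay above every control array, as was true of 9.51% of tested probe sets. Among the wide arrays Myl7 was 805 and 895 in mdx hearts and 239 in the control heart, and among the narrow ones 567 in the mdx heart and 476 and 462 in control hearts.

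At 10.5 months the 7 genes stood lower in mdx hearts on average, and again none passed. The differences were -2.08 ± 0.81 for Myl7 (adjusted p = 0.666 by limma), -2.85 ± 1.04 for Sln (adjusted p = 0.631) and -1.65 ± 0.72 for Myl4 (adjusted p = 0.666). Dkk3 was at -0.88 ± 0.42, Bmp10 at -0.61 ± 0.58, Stard10 at -0.45 ± 0.17 and Kcnj3 at -0.35 ± 0.16 (adjusted p = 0.664 to 0.853). The share called over all tested probe sets was 0.0469%. At an unadjusted p below 0.05 stood 5 of the 7 genes (Myl7, Sln, Myl4, Stard10 and Kcnj3) and 1100 of 14932 probe sets. The median over the 7 was -0.88 with 0 positive, against -0.02 over all genes tested and 44.5% of tested probe sets positive. Kcnj3 was the only member whose groups did not overlap (579, 570 and 429 in mdx hearts, 742, 665 and 619 in control hearts), which held for 10.6% of tested probe sets in this direction.

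Single control arrays decided the older comparison. Without control replicate 3 the differences at 10.5 months passed for Myl7 (-3.45, adjusted p = 0.00168), Sln (-4.64, adjusted p = 0.000455) and Myl4 (-2.83, adjusted p = 0.0217), in a limma fit that called 0.0469% of probe sets. That array had the lowest values of these genes among the older controls. Leaving it out both enlarges the difference and shrinks the spread, so these p-values are no independent test. The same holds below wherever a comparison uses the older controls without that array. Without control replicates 1 and 2, which leaves 1 control array and takes the spread from the other groups, the values turned to 0.67 for Myl7, 0.72 for Sln, 0.71 for Myl4, 1.06 for Bmp10 and 0.39 for Dkk3 (adjusted p = 0.984 for each). Without control replicate 1 alone Bmp10 was at 0.01. Stard10 and Kcnj3 stayed negative in each of these fits.

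**Figure D2:**
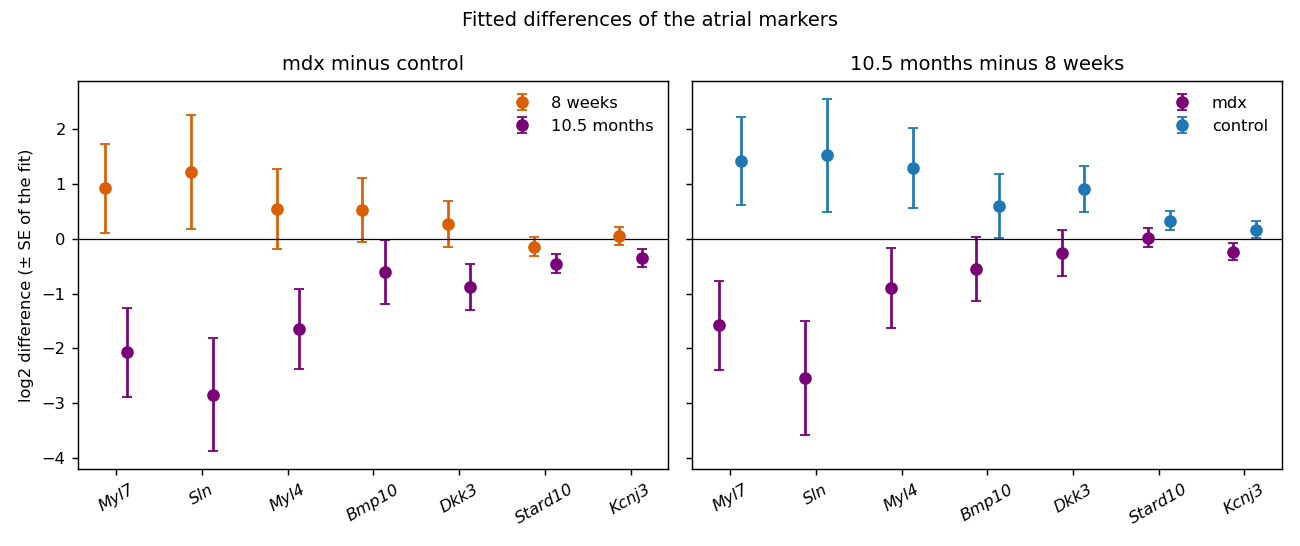
Fitted log2 differences (± SE of the fit, 3 arrays per group) of the 7 atrial markers, mdx minus control at each age on the left and 10.5 months minus 8 weeks within each genotype on the right. Myl7, Sln and Myl4 have positive values for mdx at 8 weeks and negative ones at 10.5 months, with SE of 0.72 to 1.04, while Stard10 and Kcnj3 lie between -0.45 and 0.33.

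The mdx effect had opposite signs at the 2 ages for 6 of the 7 genes, and the difference between ages did not pass. It was -3.00 ± 1.15 for Myl7 (unadjusted p = 0.0209, adjusted p = 0.320 by limma), -4.07 ± 1.46 for Sln (unadjusted p = 0.0153, adjusted p = 0.289) and -2.19 ± 1.02 for Myl4 (unadjusted p = 0.0514, adjusted p = 0.414). Over all tested probe sets 0.154% were called. All 7 genes were negative, where 47.6% of tested probe sets were positive. Without control replicate 3 at 10.5 months these 3 genes passed (adjusted p = 0.00313, 0.000899 and 0.0324, with 0.107% of probe sets called), and with replicates 1 and 2 left out they stood at -0.25, -0.50 and 0.17.

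Within mdx hearts every array at 10.5 months had lower Myl7 and Sln than every array at 8 weeks. The differences were -1.58 ± 0.81 for Myl7 and -2.55 ± 1.04 for Sln, and with the spread shared over all 4 groups they did not pass (adjusted p = 0.207 and 0.120 by limma). In a fit of the mdx arrays alone, which leaves out the widely spread control arrays, both passed (adjusted p = 0.0212 and 0.0103), where 3.78% of probe sets were called. They also passed without control replicate 3 at 10.5 months (adjusted p = 0.0118 and 0.00222, with 9.85% of probe sets called), where the differences are the same and the shared spread is smaller. The other 5 genes had differences of -0.90 to 0.02, and 1 of the 7 (Stard10) was positive, against 49.7% of tested probe sets. Of all tested probe sets 15.5% had every older mdx array below every younger one. The brighter Myl4 probe set was at -0.90 ± 0.72 (adjusted p = 0.431), while the dimmer one passed (-1.80 ± 0.46, adjusted p = 0.0263 by limma, against 11.4% of probe sets called). Its signal was 167, 26.0 and 54.8 at 10.5 months and 218, 383 and 376 at 8 weeks.

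In control hearts the same comparison of ages gave positive values, 1.42 ± 0.81 for Myl7, 1.53 ± 1.04 for Sln, 1.30 ± 0.72 for Myl4 and 0.91 ± 0.42 for Dkk3 (adjusted p = 0.414 to 0.599 by limma). None of the 7 genes passed, where 0.147% of probe sets were called (0 also at an unadjusted p below 0.05, against 1819 probe sets). All 7 were positive, against 52% of tested probe sets, and for Stard10 every older array lay above every younger one, as for 12.2% of them. This comparison and the one of mdx with control at 10.5 months share the 3 older control arrays. Without control replicate 3 at 10.5 months Myl7, Sln and Myl4 passed here too (2.80, 3.31 and 2.48, adjusted p = 0.00648, 0.00621 and 0.0363, with 0.1% of probe sets called). Without replicates 1 and 2 at 10.5 months Myl7, Sln, Myl4, Bmp10 and Dkk3 stood at -1.33, -2.04, -1.07, -1.08 and -0.36. The older control replicate 3 thus sat below all 3 younger controls for these 5 genes, as the older mdx arrays did below the younger mdx arrays for Myl7 and Sln.

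Ventricular and general heart muscle genes did not split the older control arrays on the scale of Myl7. Smaller differences in that direction were seen for some. On the brightest probe set, replicates 1 and 2 lay above replicate 3 for Irx3 (1331, 1028 and 915) and Irx5 (431, 397 and 384). The same held for Kcnd2, Ryr2 and Ttn, and not for the other tested genes of these lists. Myl2, the ventricular counterpart of Myl7, gave 27290, 30393 and 37254 in mdx hearts and 21559, 26328 and 26010 in control hearts at 10.5 months. Its r with Myl7 over the 12 arrays was -0.12 (rho -0.20, permutation p = 0.720 and 0.527, adjusted p = 1.0 for both; 0.28 without the older control replicates 1 and 2). That of Pln, which encodes phospholamban, was -0.15 (rho -0.29, permutation p = 0.636 and 0.356, adjusted p = 1.0 for both; 0.23 without those arrays). Of 10 tested ventricular genes 7 were positive and 3 negative for mdx at 10.5 months, with a median of 0.06 and 0 called, and at 8 weeks 9 were positive with a median of 0.23 and 0 called. The brightest of them follow the signal range, as Myl2 at 8 weeks shows (70057, 41336 and 20056 in mdx hearts, 21871, 44375 and 24538 in control hearts). Over the 8 arrays of narrow signal range r with Myl7 was -0.48 for Myl2 and -0.51 for Pln. Ventricular and general heart muscle genes ran both ways there, from -0.60 for Tnnt2 to 0.66 for Irx5.

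Nppa encodes the natriuretic peptide ANP, which atrial cells store in quantity and which ventricular cells make again under load. It gave 9769, 9902 and 11201 in mdx hearts and 4635, 3412 and 4983 in control hearts at 8 weeks. The older hearts had 10868, 15942 and 17080 in mdx hearts and 12705, 10540 and 4555 in control hearts. Among older controls it was thus high on the same 2 arrays as Myl7. The older mdx arrays had high Nppa and low Myl7. Over all 12 arrays r with Myl7 was 0.27 (rho 0.22, permutation p = 0.396 and 0.501, adjusted p = 1.0 for both; 0.09 without the older control replicates 1 and 2). Between deviations from the group means of all 12 arrays it was 0.85, which rests mostly on the older control arrays. Among mdx hearts at 8 weeks the array with the lowest Myl7 had the highest Nppa (11201).

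**Figure D3:**
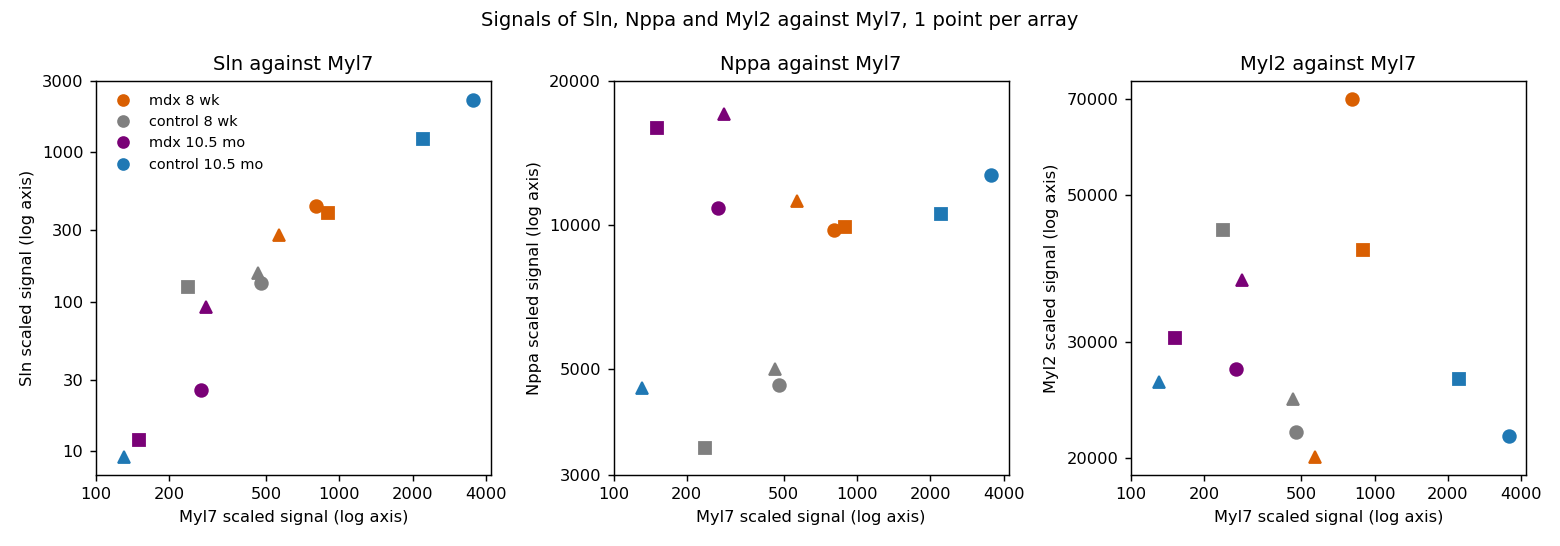
Scaled signals of Sln, Nppa and Myl2 against that of Myl7 (both axes log), 1 point per array, coloured by group and shaped by replicate (circle 1, square 2, triangle 3). Sln follows Myl7 over all 12 arrays (r = 0.97), and Nppa is high in the 3 older mdx hearts with Myl7 of 151 to 284. For Myl2 r is -0.12 over the 12 arrays and -0.48 over the 8 of narrow signal range.

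To see how far other values went with Myl7, its signal was added to the limma fit as a covariate. That signal can follow the atrial muscle taken or the activity of the gene, which the fit does not tell apart. Within groups each step of 1 in log2 Myl7 went with 1.24 ± 0.10 in Sln and 0.87 ± 0.07 in Myl4 (adjusted p = 0.000287 for both), and these were the only 2 of 14931 probe sets called (0.0134%), while 433 had an unadjusted p below 0.05. The slope was 0.53 ± 0.14 for Bmp10, 0.41 ± 0.09 for Dkk3, 0.31 ± 0.07 for Nppa, 0.10 ± 0.06 for Stard10 and 0.03 ± 0.06 for Kcnj3 (adjusted p = 1.00 for each). These slopes rest mostly on the older control arrays, where Myl7 spans the widest range.

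For Nppa the covariate moved the mdx difference in opposite ways at the 2 ages. At 8 weeks it was 0.97 ± 0.21 with Myl7 in the fit, against 1.25 ± 0.31 without it (adjusted p = 0.0552 and 0.0548 by limma), and with a score of Myl7, Sln and Myl4 in place of Myl7 it was 0.99 and passed (adjusted p = 0.0481). At 10.5 months it was 1.39 ± 0.25 with it, against 0.76 ± 0.31 without it (adjusted p = 0.156 and 0.666). With control replicate 3 left out, the value at 10.5 months was 0.87 with the covariate (adjusted p = 1.0) and 0.31 without the covariate (adjusted p = 0.978). With mdx replicate 1 left out, the value with the covariate passed (1.66, adjusted p = 0.0462). Bmp10 moved to 0.50 ± 0.51, against -0.61 ± 0.58 without the covariate, and Dkk3 to -0.02 ± 0.34, against -0.88 ± 0.42.

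Genes called for mdx changed little in size when Myl7 was in the fit. The part of atrial tissue in these calls was not tested. Outside the members, 343 probe sets were called at 8 weeks without the covariate and 152 with it, of which 138 were shared. All 343 kept their sign, and 0 changed in size by more than 1.5 times. They had been picked for differences that were large against their spread within groups, which limits how far the covariate can move them. Their median size was 0.946 with the covariate and 0.934 without it. At 10.5 months 3 probe sets were called with it and 7 without it, 2 of them shared, and again all 7 kept their sign. The median SE over tested probe sets was 0.204 with the covariate and 0.192 without it at 8 weeks, and 0.239 with it and 0.192 without it at 10.5 months. Over all tested probe sets the covariate shifted the mdx difference by a median of 0.0362 at 8 weeks and 0.0813 at 10.5 months.

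Single genes show the same. At 10.5 months Dmd stood at -1.61 ± 0.26 with the covariate and -1.63 ± 0.20 without it. The matrix growth factor gene Ccn2 stood at 1.52 ± 0.23 and 1.38 ± 0.18, Ndrg4 at 1.15 ± 0.18 and 1.11 ± 0.14, and the antiproliferative gene Tob2 at -1.42 ± 0.25 and -1.47 ± 0.19. The clock output gene Dbp stood at -2.34 ± 0.32 and -2.0 ± 0.28, and Tef at -1.53 ± 0.23 and -1.31 ± 0.20. Of these 6 genes Dbp passed with the covariate (adjusted p = 0.0448), and the others had adjusted p of 0.0645 to 0.131. At 8 weeks the potassium channel gene Kcna5, known from atrial muscle, fell by 1.14 ± 0.21 on the log2 scale with the covariate (adjusted p = 0.0325) and by 1.10 ± 0.19 without it (adjusted p = 0.0173). Of the 5 largest called rises and 5 largest called falls at 8 weeks, 8 still passed with it. Rassf1 and Telo2 did not (adjusted p = 0.0606 and 0.0673), and Tvp23a moved most, to 1.89 ± 0.26, against 2.24 ± 0.39 without it.

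**Figure D4:**
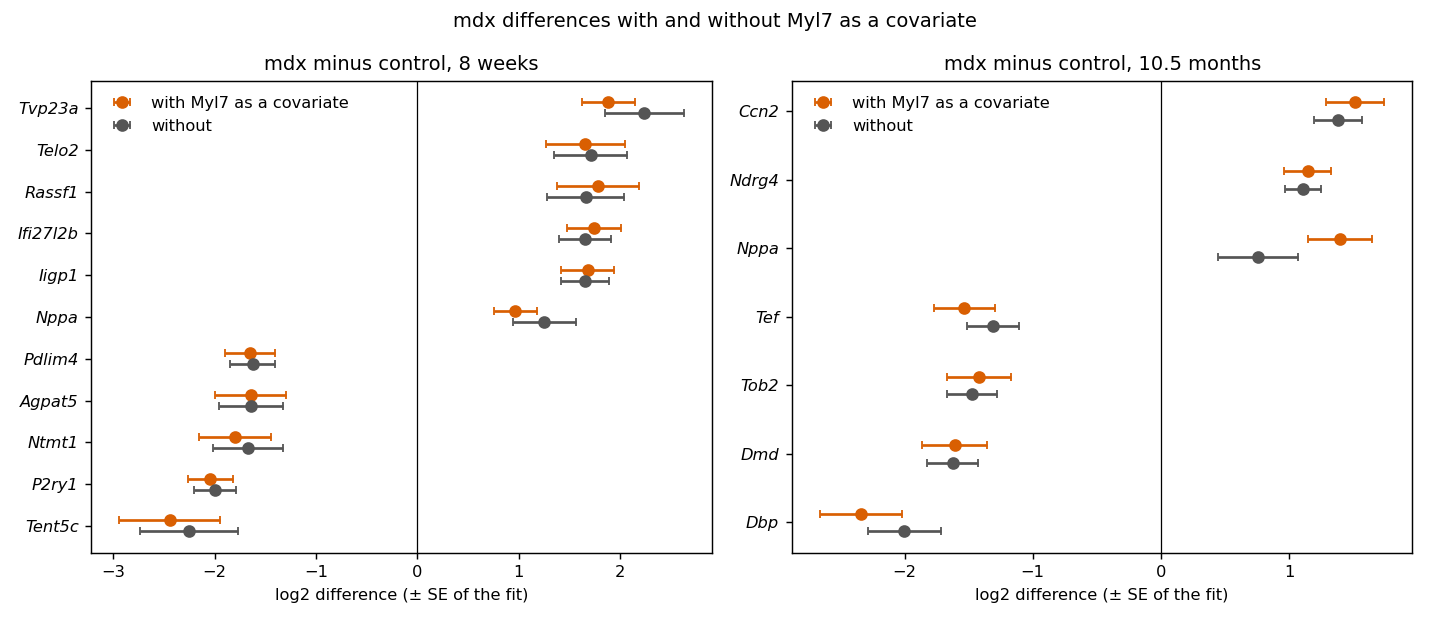
Fitted mdx minus control log2 differences (± SE of the fit) with Myl7 as a covariate (orange) and without it (grey), for the largest called genes at 8 weeks, the called genes at 10.5 months, and Nppa. Called genes stay close to their values, while Nppa at 10.5 months stands at 1.39 with the covariate and 0.76 without it.

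Some other genes known from atrial muscle followed Myl7 and some did not. Of 14 listed, 10 were measured and 8 tested, with 4 positive and 4 negative for mdx at 10.5 months (median -0.02, 0 called) and 5 positive at 8 weeks (median 0.16), where Kcna5 was called lower. Hamp and Nppa were higher on older control replicates 1 and 2 than on replicate 3, by less than Myl7. Smaller differences in that direction were seen for Nr2f2 (288, 245 and 188) and Kcna5 (718, 709 and 579). The probe sets of Tbx5 ran opposite ways, with 40.8, 232 and 331 for the brightest and 254, 203 and 129 for the other. Pam, an enzyme of peptide amidation abundant in atrial granules, gave 435, 339 and 479 on those 3 arrays, and Kcnj5, the partner channel subunit of Kcnj3, gave 165, 149 and 164. Cacna1d gave 157, 124 and 160.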

How the data were processed

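Total RNA of heart muscle was hybridised to 12 arrays, grouped and numbered by the sample titles. The labels name Affymetrix's standard protocol. The deposited values are intensity on a linear scale, and the authors had scaled the arrays to a common target (trimmed mean, 2% off each end, of 1500.6 to 1500.9). The software that combined probes and any detection calls are not given in the sources used here. Probe sets were named from the platform annotation, 20393 of 22690 with 1 gene, 691 with several and 1606 with none.

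Signals were brought to a trimmed mean of 500 per array and analysed as log2(signal + 32), which understates changes of dim genes. The 64 control probe sets were left out, and the 14932 with a mean signal of at least 100 were tested. A gene stands on its brightest probe set. In R 4.3.3, limma 3.58.1 (lmFit, eBayes) fitted 4 group means with 8 residual degrees of freedom. Benjamini-Hochberg adjustment ran over all tested probe sets, with calls below 0.05, and ± is the SE of the fit. Correlations with Myl7 used 100000 two-sided permutations. Genes named beyond the members are the 15 most and 5 least like Myl7, the called genes described, and members of fixed marker lists. The fits and permutations were tested on simulated data. Members and lists were chosen with earlier results of these data known. Alternatives were other offsets, filters, quantile normalization, fits by group pair, probe set means, a replicate block, signal range as a block, array weights, Myl7 or a score of 3 atrial genes as a covariate, and leaving out each array.

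Same-numbered arrays did not deviate together. Their correlations were -0.129, 0.135 and 0.115 at 8 weeks and 0.0248, -0.089 and -0.0684 at 10.5 months, so the numbers were not taken as pairs. The number of arrays limits the precision.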

Additional observations from a re-analysis of the deposited data

Results flagged for a closer look

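Among the genes of the marker lists given here, Acta2, the actin of smooth muscle, was the only one whose mdx effect differed between the ages by limma, by 1.44 ± 0.20 on the log2 scale (adjusted p = 0.0196). It fell by 0.80 ± 0.14 in mdx hearts at 8 weeks (adjusted p = 0.0184), with mean signals of 3876 in mdx hearts and 6775 in control hearts. At 10.5 months its mean signals were 4706 in mdx hearts and 3007 in control hearts, a difference of 0.64 ± 0.14 (adjusted p = 0.287). From 8 weeks to 10.5 months Acta2 was called lower in control hearts (-1.16 ± 0.14, adjusted p = 0.00505 by limma). In mdx hearts that difference was 0.28 ± 0.14 and did not pass (adjusted p = 0.203). With Myl7 in the fit the difference between ages was 1.35 ± 0.26 and did not pass (adjusted p = 0.113).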

How the results depend on the processing

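On its brightest probe set no member passed an adjusted p of 0.05 in any comparison as reported. The dimmer Myl4 probe set passed for age in mdx hearts. Of 788 repeat values of single genes 751 stayed on the same side with the same sign, 16 gained a call and 21 changed sign. No call could be lost, since none had been made. Of the 788, 333 did not come from leaving out arrays, and of these 328 stayed, 3 gained a call and 2 changed sign. Leaving out an array outside a comparison alters its spread but not its difference, which adds to the values that stayed. Without older control replicates 1 and 2 together (chosen after seeing the data), mdx minus control at 10.5 months was 0.67, 0.72, 0.71, 1.06 and 0.39 for Myl7, Sln, Myl4, Bmp10 and Dkk3. In that setting the mdx effect differed between the ages by 0.17, 0.53 and 0.11 for Myl4, Bmp10 and Dkk3, and age in control hearts gave -1.33, -2.04, -1.07, -1.08 and -0.36 for the 5 genes. The member medians there were 0.67 for mdx at 10.5 months, -0.11 for the difference between ages and -1.07 for age in controls, with 93 probe sets called at 8 weeks and 0 at 10.5 months. Stard10 with age in mdx hearts was -0.0528 after quantile normalization, -0.10 with array weights, and -0.11 to 0.0975 with 1 array left out. With 1 array left out Kcnj3 at 8 weeks ran from -0.0388 to 0.103, Bmp10 for mdx at 10.5 months from -1.45 to 0.0058, and Bmp10 for age in controls from -0.0205 to 1.44.

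Leaving out 1 array at a time, the member median ran from 0.26 to 0.61 for mdx at 8 weeks, -1.52 to -0.47 for mdx at 10.5 months, -1.99 to -0.75 for the difference between ages, 0.42 to 1.54 for age in controls and -0.84 to -0.29 for age in mdx hearts. Calls ran from 42 to 308 at 8 weeks, lowest without control replicate 3 of that age, and from 1 to 12 at 10.5 months. Against 343 calls at 8 weeks, a filter of 300 gave 163, fitting the compared arrays alone 23, array weights 191, and the score and Myl7 as covariates 151 and 152. Against 7 calls at 10.5 months, array weights gave 110, the score 0 (with 1050 at an unadjusted p below 0.05) and Myl7 3. The filter of 300 left 5 members, with a median difference between ages of -2.19. With the replicate block, calls were 176 at 8 weeks and 3 at 10.5 months, and no member was called. Of the 15 genes most like Myl7, 8 were shared by Spearman's rho, 1 without the 2 farthest arrays and 1 by deviations from group means. The causes were not tested. With Myl7 as a covariate and 1 array left out (also added later), calls ran from 17 to 157 at 8 weeks and from 0 to 4 at 10.5 months. The spread among the 3 older control arrays limits every comparison that uses them, and dim signals such as Sln in older mdx hearts are poorly measured.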

Other observations

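Markers of other tissues near the atria were summed over each list, and some sums are led by a single bright gene, Acta2 for smooth muscle and Fabp4 for adipocytes. The 6 measured genes of the sinus node and conduction system summed to 298 to 383 in mdx hearts and 335 to 452 in control hearts at 10.5 months. The 6 genes of epicardium and mesothelium summed to 608 to 784 in mdx hearts and 563 to 704 in control hearts. The 6 genes of great vessels and smooth muscle summed to 5673 to 6410 in mdx hearts and 3856 to 4268 in control hearts, and the 7 lung genes to 562 to 878 in mdx hearts and 556 to 809 in control hearts. The 7 atrial markers summed to 1980 to 2695 in mdx hearts and 2150 to 12773 in control hearts of that age. The 2 genes of endocardium and valve summed to 556 to 751 in mdx hearts and 731 to 865 in control hearts, and the 6 measured adipocyte genes to 10109 to 14588 in mdx hearts and 10002 to 11437 in control hearts.

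Single members of these lists did split the older control arrays. Eln, the elastin gene of great vessels and valves, gave 745, 743 and 733 in mdx hearts and 615, 494 and 346 in control hearts at 10.5 months. Aldh1a2, a retinoic acid enzyme of the epicardium, gave 154, 280 and 168 in mdx hearts and 163, 170 and 90.7 in control hearts. Both were named after their values were seen, and the other tested genes of their 2 lists did not split those arrays this way. In older controls Upk3b gave 154.5, 145 and 282, Wt1 84.0, 77.1 and 102, and Krt8 105, 226 and 205. Acta2 gave 3044, 2804 and 3173, Tagln 334, 361 and 349, and Myh11 217, 170 and 206.

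At 8 weeks the atrial markers summed to 3245 to 4358 in mdx hearts and 2598 to 3055 in control hearts. The lung genes summed to 604 to 826 in mdx hearts and 818 to 911 in control hearts, and the smooth muscle genes to 5074 to 6153 in mdx hearts and 7842 to 8600 in control hearts. The part of these tissues in the results was not tested.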
